A study of Mus musculus with 24 samples.

Results

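The citric acid cycle enzymes described here are 9 genes of mouse spermatids, taken by symbol with every probe annotated to them on an Illumina bead array: citrate synthase (Cs), the 3 subunits of NAD-dependent isocitrate dehydrogenase (Idh3a, Idh3b, Idh3g), 2-oxoglutarate dehydrogenase (Ogdh), the alpha subunit of succinyl-CoA ligase (Suclg1), the flavoprotein subunit of succinate dehydrogenase (Sdha), fumarase (Fh1) and mitochondrial malate dehydrogenase (Mdh2). They carried 16 of the 45281 probes. A probe was kept when its signal exceeded the negative control beads, with a detection p under 0.05, on at least 6 of the 24 arrays. This left 10 of the 16 probes and 8 of the 9 genes among 10759 genes tested, and Sdha was not detected. Of the 8 genes, 7 were detected on all 24 arrays and Idh3a on 23, so none passed the filter only through the stage where it was brighter.

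Round spermatids, the haploid germ cells that follow meiosis, and condensing spermatids, the later cells that compact their nucleus, were compared in mice aged 7 weeks. Each stage was profiled in wild-type mice and in a double knockdown of Cbp and p300 that the labels place in post-meiotic cells, with 6 arrays in each of the 4 groups. CBP (gene Crebbp) and p300 (gene Ep300) are histone acetyltransferases and transcriptional coactivators, and the title of the series names metabolic remodelling in late spermatogenesis as its subject. The labels state neither how the knockdown was made nor whether each array stands for an animal of its own. A p-value here therefore reflects only how much arrays vary within groups, pooled over the 4 groups. The values are amounts per unit of total RNA in bulk samples, in which fewer cells of a type and less RNA per cell cannot be told apart.

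The citric acid cycle runs in the mitochondrial matrix. Citrate synthase joins acetyl-CoA to oxaloacetate, a series of oxidations releases carbon dioxide and loads NADH and FADH2 for the respiratory chain, and malate dehydrogenase restores oxaloacetate. In the testis, germ cells after meiosis use lactate supplied by Sertoli cells as a fuel, and the mitochondria of spermatids are later arranged in the midpiece of the sperm tail.

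Between round and condensing spermatids the enzymes of the cycle did not move together. In wild type, Idh3g, Mdh2 and Idh3a rose and Suclg1 and Ogdh fell, while Cs, Idh3b and Fh1 did not pass the test. Idh3b lay near the threshold and was called lower under several of the other settings given below. The 5 genes called out of 8 compare with 64.2% of all genes called in this comparison, and the 3 rises and 2 falls with 30.3% of all genes called higher and 33.8% called lower. The median change of the 8 genes was 0.01 log2, beside -0.03 over all genes. In the knockdown the same 5 genes changed in the same directions and Cs joined the rises, giving 6 of 8 called against 62.9% of all genes. These were 4 rises, against 30.5% of all genes called higher, and 2 falls, against 32.4% called lower. The groups of both stages did not overlap for 5 of the 8 genes in wild type, against 43.2% of all genes, and for 3 in the knockdown, against 40.8%. A gene was called at an adjusted p under 0.05 in a limma fit over all genes, and each ± after a log2 difference is the standard error of that fit.

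The promoter windows of the 4 genes with the largest wild-type stage changes are shown because CBP was first known as a partner of CREB. CREB binds the cAMP response element, and its relative CREM acts in spermatids. The windows are RefSeq sequences of GRCm38.p6 from 250 bases before to 50 bases after the annotated start. All were matched by gene symbol and printed in the direction of transcription. Capitals mark TGACG on either strand, the core of the response element, and overlapping matches run together.
Idh3g, chrX:73786848-73787147, minus strand: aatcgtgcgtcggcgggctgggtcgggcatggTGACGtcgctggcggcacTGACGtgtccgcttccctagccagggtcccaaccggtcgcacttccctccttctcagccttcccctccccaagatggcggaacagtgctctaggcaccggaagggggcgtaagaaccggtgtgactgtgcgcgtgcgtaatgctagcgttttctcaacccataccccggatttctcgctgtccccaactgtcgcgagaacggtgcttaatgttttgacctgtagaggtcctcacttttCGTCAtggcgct
Ogdh, chr11:6291347-6291646, plus strand: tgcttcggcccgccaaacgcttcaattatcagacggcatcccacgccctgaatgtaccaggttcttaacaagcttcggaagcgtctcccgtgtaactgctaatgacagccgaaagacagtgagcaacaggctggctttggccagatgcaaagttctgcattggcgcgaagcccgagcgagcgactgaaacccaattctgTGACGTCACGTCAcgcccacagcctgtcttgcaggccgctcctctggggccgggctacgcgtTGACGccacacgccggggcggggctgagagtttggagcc
Suclg1, chr6:73248255-73248554, plus strand: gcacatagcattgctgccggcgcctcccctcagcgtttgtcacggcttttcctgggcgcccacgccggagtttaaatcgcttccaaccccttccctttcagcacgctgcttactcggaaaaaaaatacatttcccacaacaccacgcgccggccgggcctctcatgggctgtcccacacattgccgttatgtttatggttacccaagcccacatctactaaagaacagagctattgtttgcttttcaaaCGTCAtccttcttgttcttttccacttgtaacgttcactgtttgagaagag
Mdh2, chr5:135778399-135778698, plus strand: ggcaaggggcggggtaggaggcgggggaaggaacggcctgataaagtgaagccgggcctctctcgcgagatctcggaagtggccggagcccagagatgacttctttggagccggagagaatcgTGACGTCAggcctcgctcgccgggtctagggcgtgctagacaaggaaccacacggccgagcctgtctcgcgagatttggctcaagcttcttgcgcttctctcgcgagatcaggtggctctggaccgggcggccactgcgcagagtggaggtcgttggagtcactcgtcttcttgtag
The full element TGACGTCA stood in the Ogdh window at position -51 from the start and in the Mdh2 window at position -127, and 1.79% of 32851 mouse promoter windows of the same length hold it on either strand. The core TGACG was matched 3 times in the Idh3g window, 4 times in that of Ogdh, 2 times in that of Mdh2 and 1 time in that of Suclg1, and 20.8% of all windows hold it. Idh3b had 2 matches of the core and Fh1 had 1, while the windows of Cs and Sdha had none. Windows were found for 8 of the 9 genes, all but Idh3a, and Ogdh had 6, of which only the first is printed. Ogdh windows 1, 2 and 3 overlap and share the same full element, while windows 4, 5 and 6 held 0 matches of it. Letters that match are no measure of binding, and both a rising gene (Mdh2) and a falling gene (Ogdh) carried the full element in the window printed.

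Arrays held 15687 to 18411 probes (34.6% to 40.7%) above background. The yield tended to be higher in round samples (16264 to 18411) than in condensing ones (15687 to 16890), with overlap. Round wild-type replicate 3 and round knockdown replicates 8 and 10 stood furthest from the other arrays of their groups, at root mean square distances of 0.475, 0.428 and 0.464 log2 over all genes, where the other 21 arrays lay at 0.204 to 0.332. No difference between genotypes was called for the targeted transcripts themselves. Crebbp stood at 7.32 ± 0.22 log2 in round wild-type and 7.34 ± 0.38 in round knockdown samples (SD, n = 6 each), and at 5.82 ± 0.21 and 5.71 ± 0.41 in condensing samples. For Ep300 the round wild-type and knockdown means were 7.93 ± 0.38 and 7.97 ± 0.39, and the condensing means were 6.59 ± 0.28 and 6.57 ± 0.14. The 95% intervals of the knockdown level in round samples were 79.1% to 129% of wild type for Crebbp and 81.3% to 132% for Ep300. In condensing samples they were 72.5% to 118% and 77.4% to 125%, so a moderate reduction is not excluded. The knockdown groups are therefore named by their labels.

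**Figure D1:**
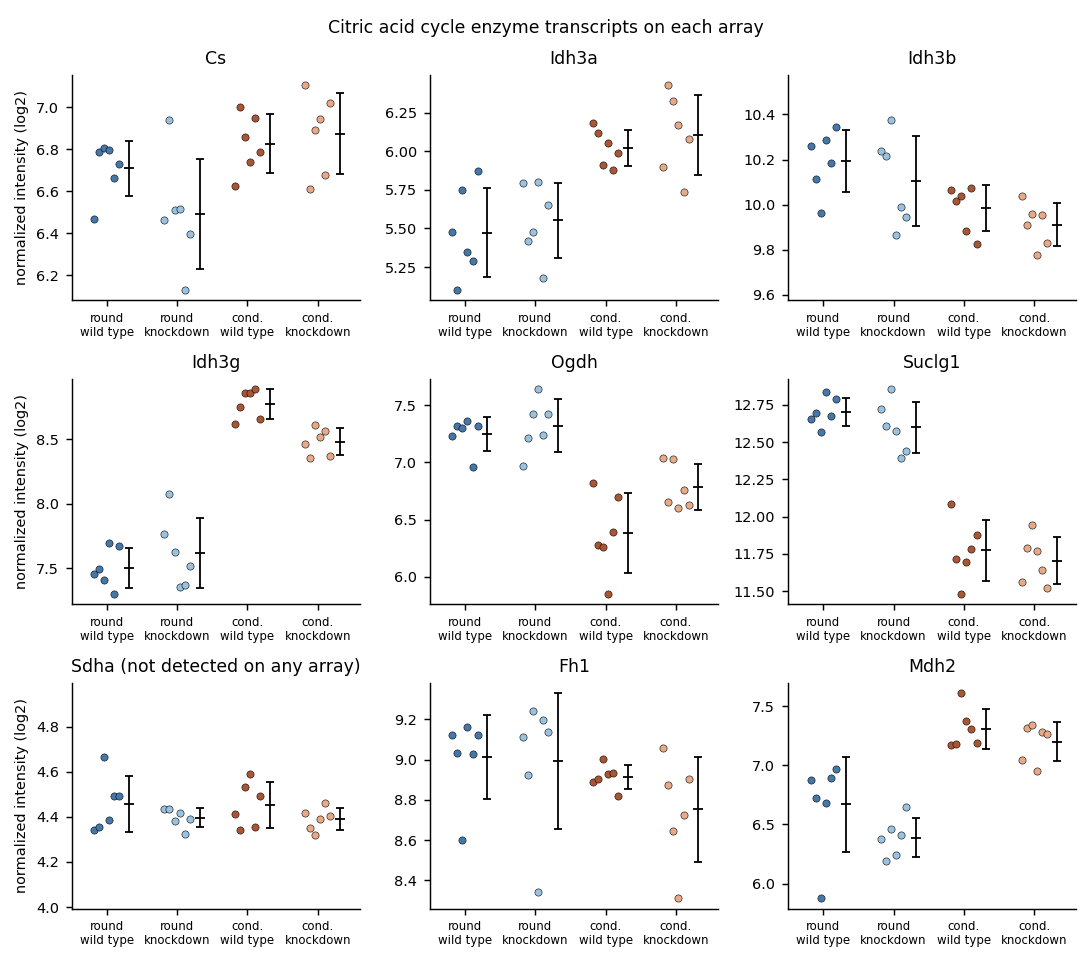
Normalized intensity (log2) of the citric acid cycle enzymes on each array, 1 panel a gene, with points for the 6 arrays of each group in replicate order and bars for the mean and SD. Idh3g, Mdh2 and Idh3a stand higher in condensing than in round wild-type spermatids and Suclg1 and Ogdh lower, with no overlap, while the Sdha probe lies at background in every group.

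Citrate synthase opens the cycle. The Cs probe read 6.47, 6.76 and 6.81 log2 (lowest, median and highest of 6 arrays) in round wild-type spermatids and 6.62, 6.82 and 7.00 in condensing ones. In the knockdown it read 6.13, 6.49 and 6.94 in round and 6.61, 6.92 and 7.11 in condensing samples. The stages overlapped in both genotypes, and round knockdown samples held the lowest values. The stage difference was 0.12 ± 0.12 log2 in wild type (adjusted p = 0.391) and 0.38 ± 0.12 in the knockdown, where it passed the test (1.30-fold, adjusted p = 0.00560). Relative to the median of all genes the wild-type value was 0.15 with quantile normalization and -0.02 when arrays were scaled to a common median, and the knockdown value was 0.39 and 0.28. As fitted with scaling to the median of all probes, the knockdown rise did not pass in limma (0.06, adjusted p = 0.732). Wild type was then called lower (-0.33, adjusted p = 0.0274). With scaling to the probes kept, the knockdown rise passed (0.38, adjusted p = 0.00538). Before background correction and normalization, mean intensities were 235 in round and 199 in condensing wild-type samples, and 210 and 208 in the knockdown.

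Isocitrate dehydrogenase 3 is the NAD-dependent enzyme that makes 2-oxoglutarate, built from a catalytic alpha subunit and the beta and gamma subunits. The transcripts of its 3 subunits behaved differently between the stages. Idh3g, the gamma subunit, showed the largest change of the 8 genes. Its brighter probe (ILMN_2997022) read 7.30, 7.47 and 7.70 log2 in round and 8.62, 8.81 and 8.89 in condensing wild-type spermatids. In the knockdown it read 7.36, 7.57 and 8.08 in round and 8.36, 8.49 and 8.61 in condensing samples. Every condensing array lay above every round array of its genotype. The rise was 1.27 ± 0.11 log2 in wild type (2.42-fold, adjusted p = 9.61e-11) and 0.86 ± 0.11 in the knockdown (1.82-fold, adjusted p = 1.19e-07). A second, dimmer probe of Idh3g (ILMN_1224368) rose as well, by 0.83 ± 0.16 log2 in wild type (adjusted p = 3.31e-05) and 1.17 ± 0.16 in the knockdown (adjusted p = 1.82e-07), so the probes differed in which genotype showed the larger rise.

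Idh3a, the catalytic subunit, was close to background. Its probe read 5.10, 5.41 and 5.87 log2 in round wild-type samples, where 5 of 6 arrays detected it, and 5.88, 6.02 and 6.18 in condensing ones. In the knockdown it read 5.18, 5.56 and 5.80 in round and 5.74, 6.12 and 6.43 in condensing samples. The wild-type stages just failed to overlap and the knockdown stages overlapped. Before background correction and normalization, mean intensities were 160 in round and 162 in condensing wild-type samples, and 159 and 169 in the knockdown. The rise was 0.55 ± 0.14 log2 in wild type (1.46-fold, adjusted p = 8.91e-04) and also 0.55 ± 0.14 in the knockdown (1.47-fold, adjusted p = 8.22e-04). Idh3b, the beta subunit, was bright: its means were 10.19 ± 0.14 and 10.11 ± 0.20 log2 in round wild-type and knockdown samples (SD, n = 6 each) and 9.98 ± 0.10 and 9.91 ± 0.09 in condensing ones. The stage difference of -0.21 ± 0.10 in wild type (adjusted p = 0.0681) and -0.19 ± 0.10 in the knockdown (adjusted p = 0.0880) did not pass the test. Without round wild-type replicate 3, the lowest of its group, the wild-type difference passed at -0.25 (adjusted p = 0.0282), and without round knockdown replicate 10 the knockdown difference passed at -0.24 (adjusted p = 0.0348). It was also called lower in both genotypes under either median scaling, at -0.76 and -0.64 with all probes and at -0.32 and -0.31 with the probes kept. It was called lower in both genotypes without background correction, in the authors' table, with array weights and without the 3 arrays apart. The adjusted p in limma was 0.0107 to 0.0258 in wild type and 0.0186 to 0.0364 in the knockdown. An offset of 50 called it in wild type only (0.0379). Before background correction and normalization, it read 1208 to 1772 in round and 782 to 999 in condensing wild-type samples. The knockdown ranges were 1149 to 1912 and 809 to 977.

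The next steps of the cycle showed falls. Ogdh is the first component of the 2-oxoglutarate dehydrogenase complex. Its probe read 6.96, 7.31 and 7.36 log2 in round and 5.85, 6.34 and 6.82 in condensing wild-type spermatids. In the knockdown it read 6.97, 7.33 and 7.64 in round and 6.60, 6.70 and 7.04 in condensing samples. The stages were apart in wild type and met at the edges in the knockdown. Ogdh fell by 0.87 log2 in wild type (SE 0.14, 1.82-fold, adjusted p = 3.94e-06) and by 0.53 in the knockdown (SE 0.14, 1.45-fold, adjusted p = 0.00138).

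Suclg1 encodes the subunit shared by both forms of succinyl-CoA ligase, which makes ATP or GTP directly in the cycle. Its brightest probe (ILMN_3002872) read 12.57, 12.69 and 12.83 log2 in round and 11.48, 11.75 and 12.08 in condensing wild-type spermatids. In the knockdown it read 12.40, 12.59 and 12.86 in round and 11.52, 11.70 and 11.94 in condensing samples. The stages did not overlap in either genotype. Suclg1 fell by 0.93 log2 in wild type (SE 0.11, 1.91-fold, adjusted p = 1.48e-08) and by 0.90 in the knockdown (SE 0.11, 1.86-fold, adjusted p = 2.97e-08). A second probe (ILMN_1216493) fell by 1.19 and 0.96 log2 (adjusted p = 8.31e-09 and 4.09e-07), again with no overlap.

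Sdha, the catalytic subunit of succinate dehydrogenase, had 1 probe, which was not above background on any array and read 4.32 to 4.67 log2. No fold is given for it. Fumarase hydrates fumarate to malate. Fh1 stood at 9.01 ± 0.21 and 8.99 ± 0.34 log2 in round wild-type and knockdown samples and at 8.91 ± 0.06 and 8.75 ± 0.26 in condensing ones (SD, n = 6 each). Its stage difference was -0.10 ± 0.14 in wild type (adjusted p = 0.546) and -0.24 ± 0.14 in the knockdown (adjusted p = 0.130). Without round knockdown replicate 10, which read 8.34 against 8.92 to 9.24 on the other 5 arrays, the knockdown difference was -0.37 and passed (adjusted p = 0.00831). With arrays scaled to the median of all probes, Fh1 was called lower in both genotypes, at -0.72 in each.

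Mdh2 closes the cycle by regenerating oxaloacetate. Its probe read 5.88, 6.80 and 6.97 log2 in round and 7.17, 7.25 and 7.61 in condensing wild-type spermatids. In the knockdown it read 6.20, 6.39 and 6.65 in round and 6.95, 7.27 and 7.34 in condensing samples. Within each genotype, the normalized values of all condensing arrays were above those of all round arrays. Before background correction and normalization, mean intensities were 234 in round and 232 in condensing wild-type samples. Their ranges overlapped, at 167 to 268 and 217 to 261. The knockdown means were 201 and 233. The rise was 0.63 ± 0.14 log2 in wild type (1.55-fold, adjusted p = 2.67e-04) and 0.81 ± 0.14 in the knockdown (1.76-fold, adjusted p = 1.17e-05). The low end in round wild type was replicate 3, and without the 3 arrays that stood apart the wild-type rise was 0.48 (adjusted p = 1.49e-04). With arrays scaled to the median of all probes, the wild-type rise did not pass in limma (0.15, adjusted p = 0.368). The knockdown rise still passed under that scaling (0.47, adjusted p = 0.00463).

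Other transcripts of the cycle and of the reactions that feed or drain it were read from lists of genes. The first list held 14 other cycle enzymes and subunits, with the cytosolic counterparts Idh1, Aco1 and Mdh1 among them. Of these, 8 were measured, Idh1 included. In wild type none rose and 3 fell, beside 30.3% of all genes called higher and 33.8% called lower. Scaling to the median of all probes gave 7 falls and no rise, with a list median of -0.72 where that of all genes was -0.31, and scaling to the probes kept gave 1 rise and 3 falls. Csl, a citrate synthase-like gene, fell by 0.95 log2 (SE 0.10, adjusted p = 7.26e-09). The partners of Ogdh in its complex fell too: Dlst, the succinyltransferase, by 0.60 (SE 0.10, adjusted p = 8.85e-06) and Dld, the lipoamide dehydrogenase that the pyruvate dehydrogenase complex also uses, by 0.78 (SE 0.19, adjusted p = 7.03e-04). These 3 genes fell in the knockdown by 0.98, 0.39 and 0.66 log2, and they were also called lower under each scaling of the arrays tried and without the 3 arrays. Suclg2, Sdhb, Sdhc, Sdhd and Idh1 did not pass the test in either genotype, with wild-type differences between -0.31 and 0.15. Probes of Sdhb, the iron-sulfur subunit of succinate dehydrogenase, disagreed: a dimmer one was lower in wild type (-0.34, adjusted p = 0.0212) and another was higher in the knockdown (0.33, adjusted p = 0.0256), and without the 3 arrays its main probe was called lower in wild type (-0.24, adjusted p = 0.0194). The further probes of Csl and Dlst were lower in both genotypes, and 1 of Dlst did not pass in the knockdown (-0.25, adjusted p = 0.0513). The median over the 8 genes measured was -0.26 in wild type and 0.01 in the knockdown. Idh2, Ogdhl, Sucla2, Aco1 and Mdh1 had probes that were detected on 0 or 1 arrays.

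Enzymes that connect the cycle with amino acids, pyruvate and lipid synthesis were read from another list. Of 11 listed, 5 were measured, and all 5 rose in wild type, beside 30.3% of all genes called higher. Their median was 0.57 log2, beside -0.03 over all genes. Got2, the mitochondrial aspartate aminotransferase that takes up oxaloacetate, rose by 1.29 ± 0.11 log2 (adjusted p = 3.04e-11), Acly, the cytosolic ATP citrate lyase, by 0.59 ± 0.11 (adjusted p = 3.56e-05) and Me2, a mitochondrial malic enzyme, by 0.52 ± 0.15 (adjusted p = 0.00341). The remaining 2, named after their values were seen, were Me1, the cytosolic malic enzyme, at 0.57 and Glud1, glutamate dehydrogenase, at 0.46. In the knockdown 4 of the 5 rose, beside 30.5% of all genes called higher. Me1 did not pass there (0.30 ± 0.17, adjusted p = 0.126), but without the 3 arrays that stood apart Me1 passed as well (0.50, adjusted p = 0.0120). A second, dimmer probe of Glud1 did not pass in wild type (0.19, adjusted p = 0.333). Me2 was dim, with means of 4.99 and 4.88 log2 in round wild-type and knockdown samples and 5.51 and 5.41 in condensing ones. Whether Me2 passed the detection filter only through condensing arrays was not checked, and for such a gene the filter favours a rise. Got2 and Me2 were called higher under each scaling tried. With arrays scaled to the median of all probes, Glud1 did not pass (0.18), and Acly and Me1 turned to -0.02 and -0.03 without passing.

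**Figure D2:**
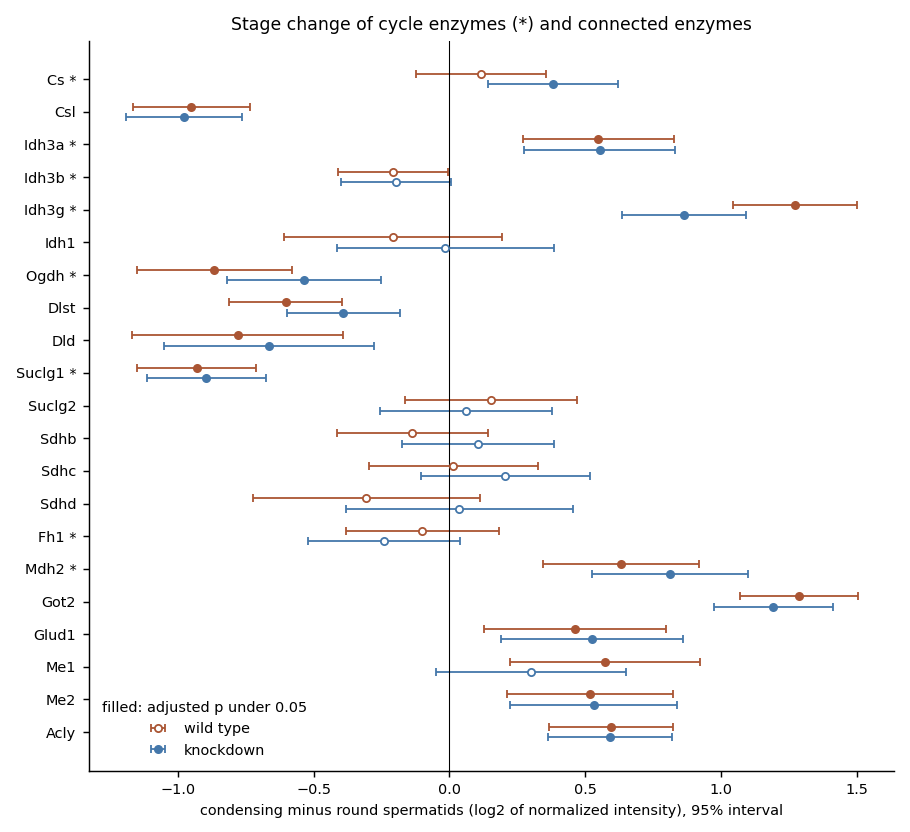
Stage change (condensing minus round spermatids, log2 of normalized intensity) of the cycle enzymes, marked by a star, and of connected enzymes, in wild type and in the knockdown. Points are limma estimates with 95% intervals, filled where the adjusted p was under 0.05. Suclg1, Ogdh and its partners Dlst and Dld lie left of 0 in both genotypes and Idh3g, Mdh2 and Got2 right of it.

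How arrays were scaled to each other bore on these directions. Quantile normalization left the median of all genes at -0.03 log2 between the wild-type stages, with 47.3% of calls being rises. Scaling to the median of all probes moved that median to -0.31 with 28.3% rises, and scaling to the median of the probes kept moved it to 0.13 with 56.1% rises. Idh3g rose and Ogdh and Suclg1 fell in both genotypes under all 36 alternatives tried, scalings, filters, probe choices and left-out arrays included. Their wild-type changes spanned 0.69 to 1.31, -1.30 to -0.41 and -1.06 to -0.59 log2. Under scaling to the median of all probes Idh3a and Mdh2 no longer passed in wild type (0.28, adjusted p = 0.105, and 0.15, adjusted p = 0.368), and Cs, Idh3b and Fh1 were called lower, at -0.33 (adjusted p = 0.0274), -0.76 (1.83e-06) and -0.72 (4.60e-05). The count was then 1 rise and 5 falls in wild type, and 2 rises and 4 falls in the knockdown. Scaling to the median of the probes kept gave 3 rises and 3 falls in wild type and 4 and 4 in the knockdown. Relative to the median of all genes, the changes under that scaling were 1.00 for Idh3g, 0.59 for Idh3a, 0.46 for Mdh2, -0.02 for Cs, -0.41 for Fh1, -0.45 for Idh3b, -0.72 for Suclg1 and -0.98 for Ogdh. The Idh3a rise of 0.55 became 0.16 without background correction and in the authors' normalized table, and 0.72 with scaling to the median of the probes kept.

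**Figure D3:**
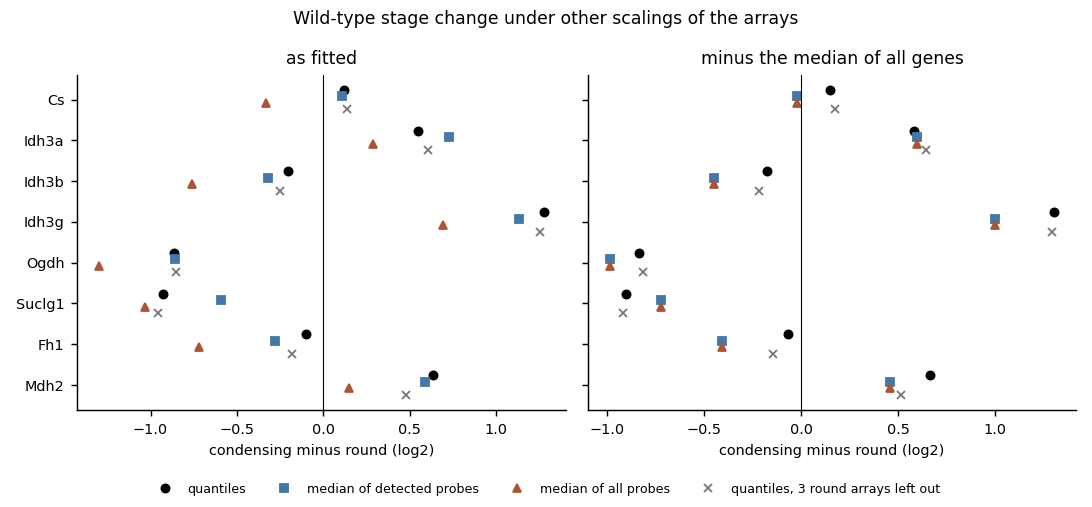
Wild-type stage change of the 8 cycle enzymes measured under quantile normalization, under 2 median scalings and without 3 round arrays. The left panel gives the log2 difference as fitted and the right panel the same minus the median of all genes, where both median scalings coincide. Idh3g stays right of 0 and Ogdh and Suclg1 left of 0 in both panels.

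Markers of other testis cells changed with stage as well, beside every stage value above. The counts of rises below stand beside 30.3% of all genes called higher in wild type. All 8 Sertoli markers measured rose in wild type, with a median of 3.23 log2, and their summed intensity went from 1105 to 1463 in round samples to 10969 to 13490 in condensing ones. The brightest were Aard (3.16 log2) and Cldn11 (3.43). All 5 erythroid markers rose, with summed intensities of 409 to 1389 and 50348 to 60866, and the brightest were Hbb-bs (5.97) and Hbb-bt (6.26). Rises were called for 7 of 9 macrophage and leukocyte markers (Lyz1 0.77, C1qb 2.13), 6 of 7 stromal (Dcn 1.63, Sparc 2.55), 5 of 6 endothelial (Egfl7 1.67, Vwf 1.46) and 2 of 3 Leydig markers (Insl3 2.68, Cyp17a1 2.30, both called). Their summed intensities went from 938 to 1312 up to 2403 to 3711 for leukocytes, from 769 to 1021 up to 2713 to 3561 for stroma, from 450 to 524 up to 1193 to 1457 for endothelium and from 250 to 699 up to 2255 to 3107 for Leydig cells. Some markers counted as rises were near background in round wild-type samples, such as Slc4a1 (4.55 log2), Emcn (4.64) and Myh11 (4.73). A marker that passed the detection filter only through condensing arrays could hardly fail to rise. How many did so was not checked, and the counts of rises may be too high for that reason. Listed markers detected on 0 arrays included Amh, Gata1 and Ctsl of Sertoli cells, Ptprc of leukocytes and Star and Hsd3b1 of Leydig cells.

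Germ cell markers were read in the same way, beside 30.3% of all genes called higher and 33.8% called lower in wild type. Of 7 spermatocyte markers 5 fell and 1 rose (Stag3 -0.75, Spo11 -0.97), with summed intensities of 13969 to 22399 in round and 9703 to 11403 in condensing wild-type samples, and Sycp3, Hormad1 and Dmc1 were detected on 0 arrays. Of 6 spermatogonial markers 2 rose (Sohlh1 0.62, Uchl1 1.25) and 1 fell, with sums of 679 to 787 and 872 to 1012. The 12 spermatid markers were the brightest list in both stages, at sums of 209897 to 230545 and 213255 to 225800, with 4 rises and 4 falls (the brightest, Ldhc at 0.01 and Odf1 at -0.10, did not pass). In the knockdown 8 of 8 Sertoli and 5 of 5 erythroid markers were higher in condensing samples as well, against 30.5% of all genes called higher. The part of other cells in the stage changes of the cycle enzymes was not tested.

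The comparison of genotypes asked whether the enzymes differed between samples labelled knockdown and wild type. No genotype difference was called for the Crebbp and Ep300 transcripts, and protein was not measured. The comparison therefore cannot show whether the enzymes depend on CBP and p300. In round spermatids no cycle enzyme differed between knockdown and wild type, and neither did any of the 10759 genes (0%), while 388 genes had an unadjusted p under 0.05, none of them a cycle enzyme. Differences ran from -0.28 log2 for Mdh2 (95% interval -0.57 to 0.01) to 0.12 for Idh3g (-0.11 to 0.35). The 95% intervals of the 8 genes together reached from 67.5% to 128% of the wild-type level.

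In condensing spermatids the counts were again 0 of 8, against 0.539% of all genes, where 58 were called and 948 had an unadjusted p under 0.05. The widest differences were those of Ogdh and Idh3g. Ogdh was higher in the knockdown by 0.40 ± 0.14 log2, at 6.78 ± 0.20 against 6.38 ± 0.35 (SD, n = 6 each), which did not pass in limma (adjusted p = 0.297, unadjusted p = 0.00727). Its groups overlapped. Idh3g was lower at -0.29 ± 0.11 log2, 8.48 ± 0.10 against 8.78 ± 0.12 (SD, n = 6 each), which did not pass in limma either (adjusted p = 0.389, unadjusted p = 0.0140). All 6 Idh3g values of the knockdown lay under all 6 of wild type, and 1.31% of all genes had groups that did not overlap in this comparison. The second Idh3g probe did not share the direction, at 0.08 ± 0.16 (adjusted p = 0.957), and the mean of both probes gave -0.11. For the other 6 genes the differences lay between -0.16 (Fh1) and 0.08 (Idh3a). The 95% intervals of the 8 genes together reached from 69.7% to 161% of wild type.

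The stage change itself was then compared between genotypes, which is the same test as whether the knockdown difference depends on stage. None of the 8 genes passed, against 0.0465% of all genes, where 5 were called and 747 had an unadjusted p under 0.05. Idh3g rose less in the knockdown by its brighter probe, at -0.41 ± 0.16 log2 (unadjusted p = 0.0150, adjusted p = 0.591), but its second probe gave 0.34 ± 0.22 (adjusted p = 0.825). Ogdh gave 0.33 ± 0.20 and Cs 0.26 ± 0.16 (adjusted p = 0.789 and 0.802). The call of Cs in the knockdown alone is thus not shown to be a difference between genotypes. Among the 8 genes measured from the list of other cycle enzymes, Idh1 included, and the 5 connecting enzymes, none was called in any of these 3 comparisons. Dlst had the smallest p of them in condensing spermatids (0.22 ± 0.10, adjusted p = 0.521).

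**Figure D4:**
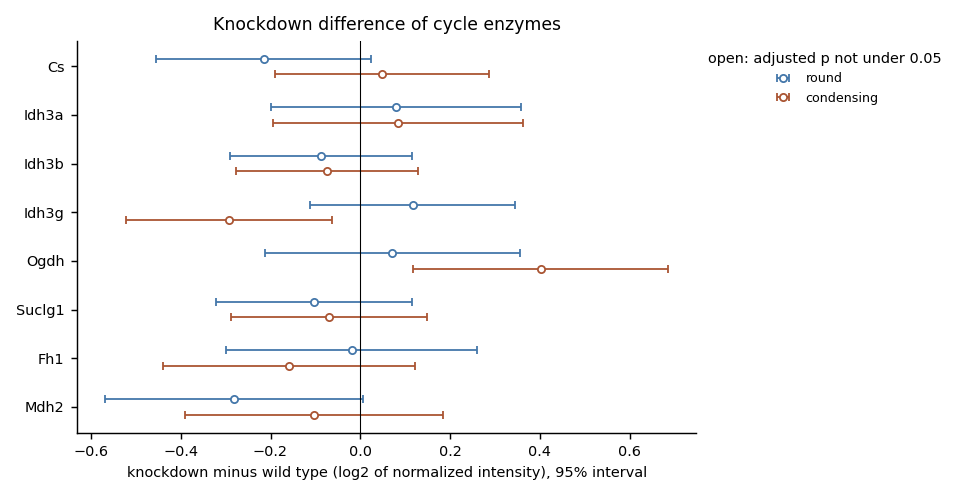
Difference between knockdown and wild type (log2 of normalized intensity) for the 8 cycle enzymes measured, in round and in condensing spermatids, as limma estimates with 95% intervals. All points are open because no adjusted p was under 0.05, and Idh3g and Ogdh in condensing spermatids lie furthest from 0 on opposite sides, at -0.29 and 0.40.

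The profiles over the 24 arrays were set against each other after centring each gene on its mean, with the root mean square difference as the measure of likeness. Among the 28 pairs of cycle enzymes, Idh3b and Fh1 were the closest at 0.18 log2 and Idh3g and Suclg1 the furthest at 1.02. Ogdh and Suclg1, the falling genes, differed by 0.30, and Idh3g and Mdh2, which rose, by 0.35. The subunits of isocitrate dehydrogenase lay 0.40 (Idh3a and Idh3g), 0.47 (Idh3a and Idh3b) and 0.66 (Idh3b and Idh3g) apart. Outside the cycle, the closest profile was that of Amz2 for Cs (0.14), Mical3 for Idh3a (0.20), Pex3 for Idh3b (0.10), Ppt1 for Idh3g (0.13), Hif1an for Ogdh (0.20), Dync2li1 for Suclg1 (0.13), Ing5 for Fh1 (0.14) and Akr7a5 for Mdh2 (0.19). The median distance of all genes was 0.38 to 0.64 log2, depending on the enzyme.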

How the data were processed

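Messenger RNA from 4 groups of 6 mouse samples was measured on Illumina bead arrays. The deposited table gives, per the file headers, a non-normalized mean bead intensity for each of 45281 probes and array, and a detection p-value for each. The authors also deposited a normalized table of intensity values, used as an alternative. Their software and background handling: not given in the sources used here.

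Intensities were background-corrected by normexp from the detection p-values, with an offset of 16, quantile normalized and log2 transformed (neqc, limma 3.58.1, R 4.3.3). The offset understates changes of dim probes. Probes detected on at least 6 arrays were kept (19086); 3143 without a symbol and 10 with several were left out, and the probe with the highest mean stood for a gene (10759 genes). Symbols came from the platform annotation. limma fitted 4 group means and 5 contrasts over all 24 arrays, two-sided, with Benjamini-Hochberg adjustment over all genes. The 95% interval had a median half-width of 0.29 log2 (1.22-fold), a precision set by the number of arrays. The script was tested on simulated data.

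The members and lists were chosen with earlier results of these data known. Named by rule are all members, the 3 called genes with the smallest adjusted p per direction and contrast from the other cycle and the entry and exit lists, the closest profile to each member, and the 2 brightest of each marker list. Alternatives covered scaling, background, offset, the authors' table, the detection filter, the probe of a gene, array weights, the samples fitted and left-out arrays.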

Additional observations from a re-analysis of the deposited data

Results flagged for a closer look

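Within groups of 6 arrays, 4 of 32 combinations of gene and group held 1 array far from the rest, judged by its gap to the nearest array divided by the range of the group. Chance flags about 1 in 20 groups. Fh1 in round wild-type spermatids had the widest relative gap, at 0.763, with replicate 3 at 8.60 log2 and the others at 9.03 to 9.16. Mdh2 had a gap of 0.734 in the same group, again from replicate 3, at 5.88 against 6.68 to 6.97. Ogdh in that group had a gap of 0.679, from replicate 5 at 6.96 against 7.23 to 7.36. Fh1 in round knockdown spermatids had a gap of 0.646, from replicate 10 at 8.34 against 8.92 to 9.24. In each case the array was the lowest of its group.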

How the results depend on the processing

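The counts of cycle enzymes called were 5 in wild type and 6 in the knockdown between stages, and ranged from 4 to 6 and from 5 to 8 over 36 alternatives; leaving out each of the 24 arrays in turn gave 5 to 6 and 6 to 8. The counts in the genotype comparisons and for their difference were 0 in every alternative. Of 1427 values of single genes, 1401 stayed on their side of the threshold. Of these, 36 changed sign, in 6 results of the genotype comparisons and their difference, and none was called. A further 21 newly passed it (all Idh3b or Fh1, all lower in condensing spermatids) and 4 no longer passed. Scaling to the median of all probes turned Cs in wild type to -0.33 (adjusted p = 0.0274) and ended the calls of Idh3a and Mdh2 in wild type and, in the knockdown, those of Cs (0.06) and Idh3a (0.34). It also moved the median of all genes to -0.31 in wild type and -0.23 in the knockdown, with 32.4% rises among knockdown calls beside 48.5%. Scaling to the median of kept probes was added after seeing the data and gave 54.7%. Requiring detection on all 24 arrays left Idh3a out, hence the count of 4. Over all genes, calls between genotypes in condensing spermatids numbered 58, and 22 and 21 with the 2 median scalings, 19 with detection on all arrays, 26 with only the groups compared, 105 without the 3 arrays apart and 116 with array weights. For the difference between knockdown effects they numbered 5, and 2 to 16 over the alternatives. No paired analysis was possible because the replicate numbers run through all arrays and no groups share them. Bead chips as a block were not run, since the file headers give no chips. A low signal over background limits Idh3a most and leaves Sdha without a value.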

Other observations

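Genes of general mitochondrial upkeep also held both rises and falls between the stages. Of 18 measured (porins, import, chaperones, proteases, fusion and mitochondrial DNA genes), 6 rose and 12 fell in wild type, with a median of -0.50 log2, and 4 rose and 9 fell in the knockdown, with a median of -0.34. Of all genes, 30.3% were called higher and 33.8% lower in wild type, and 30.5% and 32.4% in the knockdown. The wild-type counts were 2 rises and 12 falls with scaling to the median of all probes, and 4 and 9 with scaling to the probes kept. The widest rise, named after the values were seen, was that of Vdac1, a porin of the outer membrane, at 2.74 ± 0.11 log2 (adjusted p = 3.10e-17), while its paralogs Vdac2 and Vdac3 fell by 0.86 and 0.98 (SE 0.12 and 0.14). The chaperone partners Hspd1 and Hspe1 rose by 0.47 and 0.54 and Hspa9 fell by 0.92. Tfam, which packages mitochondrial DNA, rose by 0.62 and Polg, its polymerase, fell by 0.83. None of the 18 differed between genotypes at either stage in limma, with 0 called, 0 at an unadjusted p under 0.05 and the smallest adjusted p, 0.600, in condensing spermatids.

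Within the members, 6 probes were not above background on enough arrays. Of these, 4 probes (of Idh3a, Idh3b, Suclg1 and Sdha) were detected on 0 arrays, that of Ogdh on 1 and that of Fh1 on 3, beside other probes of the same genes, Sdha apart, that were detected on 23 or 24.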
